A study of Rattus norvegicus with 19 samples.

Results

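The genes described here are 8 enzymes that modify collagen after it is translated: the collagen prolyl 4-hydroxylase subunits P4ha1, P4ha2 and P4hb, the lysyl hydroxylases Plod1, Plod2 and Plod3, and the lysyl oxidases Lox and Loxl2. They were taken by gene name from the annotation of the array, where they had 10 of 45598 probe names and 43 of 58717 spots that were not controls. Their RNA was measured on 19 single-colour arrays, each of the renal cortex of another male rat of strain Crl:CD (SD). The 7 DKD+enarodustat rats and the 7 DKD rats were made diabetic with 65 mg/kg of intravenous streptozotocin, a toxin of pancreatic beta cells, and the 5 Sham rats were injected with vehicle. From 7 days after the injection the DKD+enarodustat rats ate feed containing 0.01% (w/w) of enarodustat, while the DKD and Sham rats ate the normal feed, and the kidneys were collected 14 days later. The animals of both diabetic groups were chosen from a larger set so that blood glucose and body weight matched. Diabetes was therefore chemical and short, and no group received enarodustat without streptozotocin.

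Collagen chains are hydroxylated on proline and lysine in the endoplasmic reticulum. Prolyl 4-hydroxylase joins catalytic alpha subunits to a beta subunit, its product stabilises the collagen triple helix, and hydroxylated lysines carry sugars and take part in cross-links that lysyl oxidases start outside the cell. The hydroxylases need iron, oxygen and 2-oxoglutarate, as do the prolyl hydroxylases of the hypoxia-inducible factor (HIF), which enarodustat inhibits and which otherwise mark HIF for degradation. In cultured cells, genes of the prolyl and lysyl hydroxylases and of lysyl oxidases are known HIF targets, and in the kidney these enzymes are studied for their part in fibrosis.

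The promoters of 4 members are shown because P4ha1 and Plod1 were higher with enarodustat while their relatives P4ha2 and Plod2 did not pass the test. Each window runs from 250 bases before to 50 bases after the annotated start in the RefSeq annotation of assembly GRCr8, 5′ to 3′ on the strand of the gene. Capitals mark matches to ACGTG or GCGTG, the core letters of the element that HIF binds, on either strand, so that a match on the opposite strand reads CACGT or CACGC.
P4ha1 promoter, chr20:27844796-27845095, plus strand: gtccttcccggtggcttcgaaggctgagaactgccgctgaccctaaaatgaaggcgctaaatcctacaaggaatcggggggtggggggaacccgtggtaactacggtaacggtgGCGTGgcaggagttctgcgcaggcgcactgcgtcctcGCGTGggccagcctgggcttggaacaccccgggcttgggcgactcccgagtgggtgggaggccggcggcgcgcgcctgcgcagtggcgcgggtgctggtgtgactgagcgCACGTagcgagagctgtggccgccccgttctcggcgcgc
P4ha2 promoter, chr10:38743644-38743943, plus strand: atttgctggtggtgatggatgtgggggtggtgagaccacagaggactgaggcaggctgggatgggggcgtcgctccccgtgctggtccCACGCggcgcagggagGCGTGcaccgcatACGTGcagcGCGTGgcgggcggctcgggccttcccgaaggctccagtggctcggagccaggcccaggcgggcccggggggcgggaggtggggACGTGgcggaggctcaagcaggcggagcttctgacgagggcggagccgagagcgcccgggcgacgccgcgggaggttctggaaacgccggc
Plod1 promoter, chr5:163650688-163650987, minus strand: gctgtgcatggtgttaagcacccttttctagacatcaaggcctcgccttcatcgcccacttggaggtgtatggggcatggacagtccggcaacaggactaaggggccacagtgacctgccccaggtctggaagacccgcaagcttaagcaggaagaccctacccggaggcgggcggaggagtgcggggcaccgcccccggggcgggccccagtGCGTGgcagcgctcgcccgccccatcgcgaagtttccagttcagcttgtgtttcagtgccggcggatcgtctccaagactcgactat
Plod2 promoter, chr8:101964068-101964367, plus strand: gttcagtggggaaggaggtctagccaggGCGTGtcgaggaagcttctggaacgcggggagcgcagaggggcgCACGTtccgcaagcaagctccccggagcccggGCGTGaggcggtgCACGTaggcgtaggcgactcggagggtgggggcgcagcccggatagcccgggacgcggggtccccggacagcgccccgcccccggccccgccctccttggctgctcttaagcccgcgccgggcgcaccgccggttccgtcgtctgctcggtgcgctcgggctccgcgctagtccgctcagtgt

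At least 1 match was present in 41.6% of the 33469 promoter windows of the annotation, and the mean was 0.756 matches for each window. The P4ha1 window held 3 matches, and 8.15% of all windows held as many or more. The P4ha2 window held 5 matches (1.52% of windows held as many or more) and the Plod2 window 4 (3.46%), whereas the Plod1 window held 1 (41.6%). The windows of P4hb and Plod3, not printed, held 1 and 2 matches, and a window was at hand for 6 of the 8 members, which leaves out Lox and Loxl2. The 4 printed windows were 63.3% to 73.7% G and C against a median of 51.7% over all windows, and base composition alters how often these letters occur. None of the matches was part of CACGTG. A match describes the letters and not a binding site.

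All 8 members were well above background on all 19 arrays, so every difference of a member below lies between measured signals. Levels are log2 of the processed signal minus the 75th percentile of the array, written as log2 levels, and differences are on the same log2 scale with the standard error of the limma fit. Levels of different genes are not set against each other, because each probe has its own response. Adjusted p-values are two-sided and corrected over the 24216 genes tested, with a threshold of 0.05. Probes well above background made up 58.9% ± 2.87 of all probes in DKD+enarodustat (SD, n = 7), 62.8% ± 4.87 in DKD (SD, n = 7) and 64.3% ± 2.61 in Sham (SD, n = 5). The arrays lay on 3 slides with all groups on each, but the row on the slide followed the group. All 7 DKD+enarodustat arrays lay in row 2, the DKD arrays lay in row 1 except replicates 2 and 4 in row 2, and all 5 Sham arrays lay in row 1. Within DKD, probes well above background made up 57.6% and 54.7% in replicates 2 and 4, and 62.5% to 67.3% in row 1. The group difference in this percentage cannot be told apart from the row. No row held both DKD+enarodustat and Sham arrays, so gene differences between those groups are tied to the row as well. The 7 proximal tubule genes used to check the labelled tissue were above background in each group.

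Between DKD+enarodustat and DKD, P4ha1 and Plod1 rose and the other 6 did not pass the test, where 2.00% of all genes tested passed (1.07% upwards and 0.933% downwards). Between DKD and Sham, Lox rose, Loxl2 fell and the other 6 did not pass, where 17.1% of all genes passed (8.02% upwards and 9.07% downwards). Between DKD+enarodustat and Sham 3 passed, Lox, P4ha1 and Plod1, each higher in DKD+enarodustat, and 5 did not, where 26.1% of all genes passed in either direction. The median difference of the 8 members was 0.23 for DKD+enarodustat against DKD and -0.16 for DKD against Sham, against medians over all genes of -0.023 and -0.020. All comparisons share groups, so their results are not independent of each other. In tissue RNA, fewer cells of a type and less RNA per cell cannot be told apart.

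**Figure D1:**
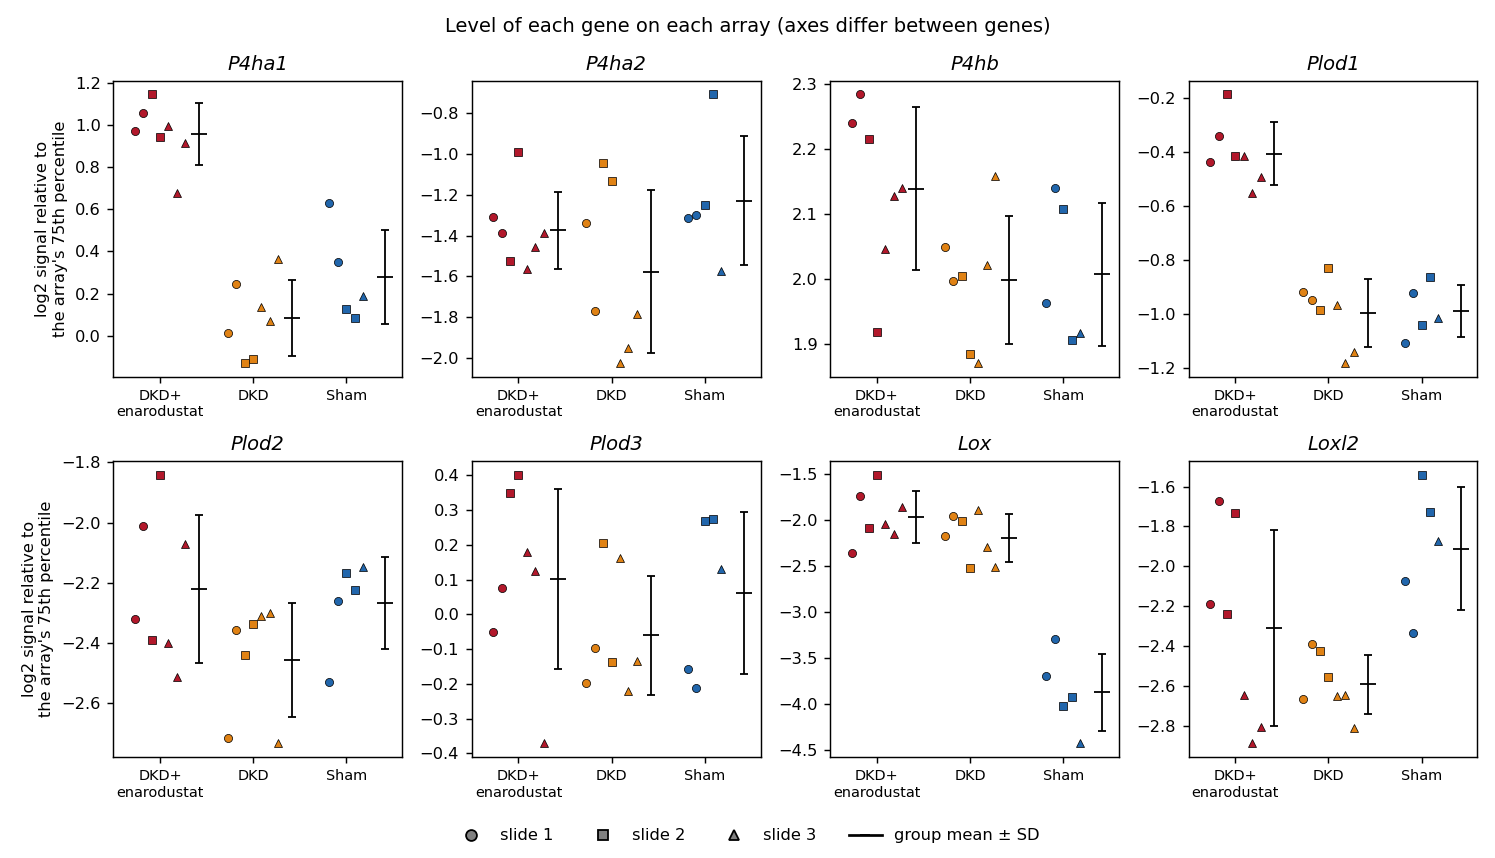
Log2 level of each of the 8 genes (y axis, relative to the 75th percentile of the array, with its own range for each gene) on each array, by group (x axis). Points are arrays, shapes are slides, and bars are group means ± SD; the DKD+enarodustat points of P4ha1 and Plod1 lie above all DKD and Sham points, and the Sham points of Lox lie below all others.

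P4ha1, the first catalytic alpha subunit of prolyl 4-hydroxylase, was the member with the largest difference under enarodustat. Its log2 level ranged from 0.68 to 1.14 with a median of 0.97 in the 7 DKD+enarodustat rats. It ranged from -0.13 to 0.37 with a median of 0.071 in the 7 DKD rats, and was 0.63, 0.35, 0.13, 0.086 and 0.19 in Sham replicates 1 to 5. The lowest DKD+enarodustat rat was above the highest DKD rat and, by a small margin, above the highest Sham rat. The means were 0.96 ± 0.15 in DKD+enarodustat and 0.084 ± 0.18 in DKD (SD, n = 7 each), a rise of 0.87 ± 0.10 (1.83-fold, adjusted p = 7.38e-05), the 19th smallest p-value of the 24216 genes. The groups did not overlap, which held for 1.25% of all genes in this comparison. Within slides 1, 2 and 3 the difference was 0.88, 1.16 and 0.67, and among arrays of row 2 it was 0.89 (7 DKD+enarodustat and 2 DKD arrays). Against Sham, whose mean was 0.28 ± 0.22 (SD, n = 5), DKD+enarodustat was higher by 0.68 ± 0.11 (adjusted p = 0.00016), and groups did not overlap in 14.4% of all genes there. Over 23 alternatives that difference from Sham was 0.62 to 0.77, with adjusted p up to 0.0474 in the limma fit. DKD differed from Sham by -0.19 ± 0.11, which did not pass (adjusted p = 0.256), and 4 of 7 DKD rats lay below all Sham rats. The probe of P4ha1 lies on an unplaced sequence of rn4 (chrUn:15075009-15075068, minus strand).

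P4ha2, the second catalytic alpha subunit, did not pass in any comparison. Its log2 level ranged from -1.56 to -0.99 (median -1.39) in DKD+enarodustat, from -2.03 to -1.04 (median -1.77) in DKD, and was -1.31, -1.30, -1.25, -0.71 and -1.57 in Sham. The DKD rats were spread over the widest range, and their order followed the slide: -1.13 and -1.04 on slide 2, -1.77 and -1.34 on slide 1, and -2.03 to -1.79 on slide 3. DKD+enarodustat differed from DKD by 0.20 ± 0.16 (adjusted p = 0.675, 95% interval -0.14 to 0.55), and within slides by 0.20, -0.17 and 0.45. DKD differed from Sham by -0.35 ± 0.18 (adjusted p = 0.212), with all DKD slides below the Sham arrays of the same slide on average (by -0.25, -0.11 and -0.35). The interval of the first difference still allows an increase of P4ha2 smaller than that of P4ha1. The probe lies at chr10:39550587-39550646 on the plus strand of rn4.

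P4hb encodes the beta subunit, which is also protein disulfide isomerase and serves other proteins in the endoplasmic reticulum. Its level varied little, from 1.92 to 2.28 (median 2.14) in DKD+enarodustat, from 1.87 to 2.16 (median 2.00) in DKD, and 1.96, 2.14, 2.11, 1.91 and 1.92 in Sham. The groups overlapped, and the SD was 0.13 in DKD+enarodustat, 0.098 in DKD and 0.11 in Sham. The difference of DKD+enarodustat from DKD was 0.14 ± 0.066 (adjusted p = 0.354, 95% interval 0.0026 to 0.28), and that of DKD from Sham was -0.0088 ± 0.072 (adjusted p = 0.965). The P4hb probe was printed in 10 spots, at chr10:109950731-109950790 on the minus strand of rn4.

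To ask whether the subunits changed unequally, the log2 difference between 2 probes was taken within each array and compared between groups by a two-sided exact permutation test. Because each probe has its own response, an unequal change here is one of signals and may differ from that of the RNA. This was done for 7 pairs in 3 comparisons, 21 tests whose p-values were adjusted together, and 11 passed. Among them was Lox minus Loxl2 in DKD against Sham, whose outcome was fixed in advance, as described below. The pairs were chosen with earlier results of these data known. P4ha1 minus P4ha2 was 2.33 ± 0.25 in DKD+enarodustat and 1.66 ± 0.55 in DKD (SD, n = 7 each), an unequal change of 0.67 (exact permutation test, adjusted p = 0.0190). That call was lost without DKD+enarodustat replicate 2, 3 or 5, with adjusted p = 0.0538, 0.0600 and 0.0625 in the exact permutation test. P4ha1 minus P4hb was -1.18 ± 0.16 in DKD+enarodustat and -1.91 ± 0.16 in DKD, an unequal change of 0.73 with no overlap (exact permutation test, adjusted p = 0.00884). The signal of the catalytic subunit P4ha1 rose by more than that of its beta subunit in these arrays. Between DKD and Sham neither pair passed, with unequal changes of 0.16 for P4ha1 minus P4ha2 and -0.18 for P4ha1 minus P4hb (exact permutation test, adjusted p = 0.706 and 0.214).

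Plod1, which hydroxylates lysines in the helical part of collagen, was the other member that rose with enarodustat. Its log2 level ranged from -0.55 to -0.19 (median -0.42) in DKD+enarodustat and from -1.18 to -0.83 (median -0.97) in DKD, and was -1.11, -0.92, -1.04, -0.86 and -1.02 in Sham. The 7 DKD+enarodustat rats all lay above the other 12 rats, and the DKD and Sham rats covered the same range. Of all genes, 1.25% did not overlap between DKD+enarodustat and DKD, and 14.4% between DKD+enarodustat and Sham. The means were -0.41 ± 0.12 in DKD+enarodustat, -0.997 ± 0.12 in DKD and -0.99 ± 0.097 in Sham (SD). The rise over DKD was 0.59 ± 0.068 (1.51-fold, adjusted p = 8.16e-05, the 22nd smallest p-value), and it was 0.55, 0.61 and 0.61 within the 3 slides and 0.48 within row 2. The rise over Sham was 0.58 ± 0.074 (adjusted p = 1.86e-05), and it became 0.43 with an adjusted p of 0.0588 with the slide row as a term. DKD differed from Sham by -0.0068 ± 0.074 (adjusted p = 0.976, 95% interval -0.16 to 0.15). The Plod1 probe was printed in 10 spots, at chr5:164987432-164987491 on the minus strand of rn4.

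Plod2, which hydroxylates lysines in the telopeptides at the ends of collagen, did not pass. Its log2 level ranged from -2.51 to -1.84 (median -2.32) in DKD+enarodustat and from -2.73 to -2.30 (median -2.36) in DKD, and was -2.53, -2.26, -2.17, -2.23 and -2.15 in Sham. The groups overlapped, and 3 of 7 DKD+enarodustat rats were above all DKD rats. The difference of DKD+enarodustat from DKD was 0.24 ± 0.11 (adjusted p = 0.351, 95% interval 0.0056 to 0.47) and that of DKD from Sham -0.19 ± 0.12 (adjusted p = 0.332). The probe lies at chr8:97622880-97622939 on the plus strand of rn4.

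Plod3, which also transfers glucose and galactose to hydroxylysine, did not pass either. Its log2 level ranged from -0.37 to 0.40 (median 0.13) in DKD+enarodustat and from -0.22 to 0.20 (median -0.13) in DKD, and was -0.16, -0.21, 0.27, 0.28 and 0.13 in Sham. The groups overlapped over most of their range. The difference of DKD+enarodustat from DKD was 0.16 ± 0.12 (adjusted p = 0.631, 95% interval -0.087 to 0.41) and that of DKD from Sham -0.12 ± 0.13 (adjusted p = 0.623). The probe lies at chr12:20866795-20866854 on the plus strand of rn4.

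With enarodustat the Plod1 signal changed by more than the signals of Plod2 and Plod3, against Plod2 less firmly. Plod1 minus Plod3 was -0.51 ± 0.23 in DKD+enarodustat and -0.94 ± 0.19 in DKD (SD, n = 7 each), an unequal change of 0.43 (exact permutation test, adjusted p = 0.00884). Plod1 minus Plod2 was 1.81 ± 0.27 in DKD+enarodustat and 1.46 ± 0.21 in DKD, an unequal change of 0.35 (exact permutation test, adjusted p = 0.0367), and it passed in 14 of 25 alternatives. It was lost when the labels were permuted within slides (exact permutation test, adjusted p = 0.0689), without the DKD arrays of row 2 (0.0964), and without any one of DKD replicates 2 to 6 or DKD+enarodustat replicates 1, 3, 5 and 6. Plod2 and Plod3 did not differ in their changes beyond the spread (0.075, exact permutation test, adjusted p = 0.725). The P4ha1 signal rose by 0.28 more than the Plod1 signal (exact permutation test, adjusted p = 0.0367), and that passed in 13 of 25 alternatives. It was lost with permutation within slides, without the DKD arrays of row 2, and without any one of DKD replicates 1, 3, 4 and 5 or DKD+enarodustat replicates 1, 2, 3, 4, 5 and 7.

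**Figure D2:**
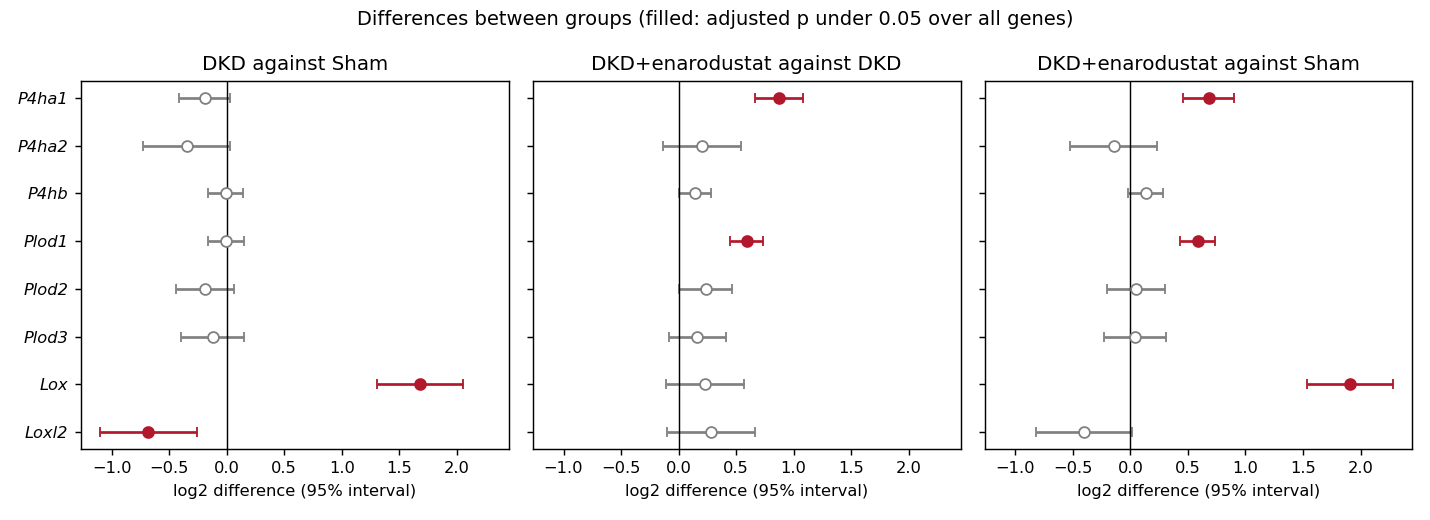
Log2 difference of each gene (rows) for the 3 comparisons between groups (panels), with 95% intervals of the limma fit; filled points passed the adjusted threshold over all genes. P4ha1 at 0.87 and Plod1 at 0.59 stand right of 0 for DKD+enarodustat against DKD, and Lox at 1.68 and Loxl2 at -0.68 stand apart for DKD against Sham.

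**Figure D3:**
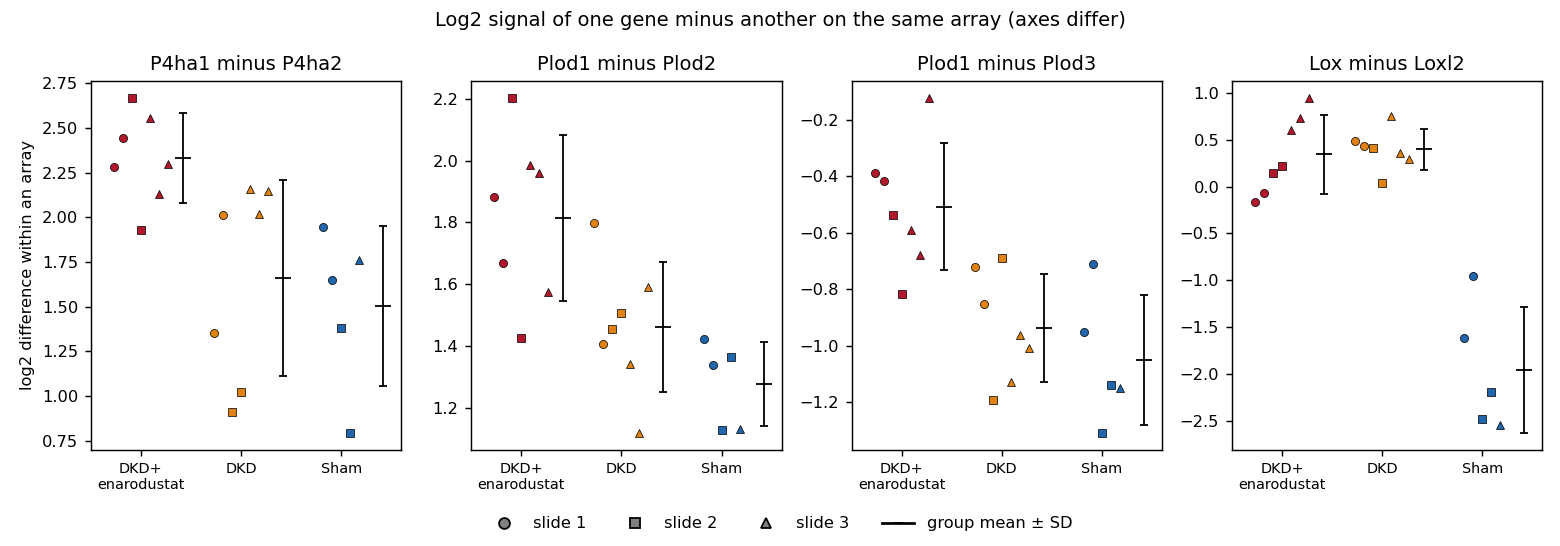
Log2 level of 1 gene minus another on the same array (y axis, log2 units, with its own range for each pair), by group (x axis); points are arrays, shapes are slides and bars are group means ± SD. P4ha1 minus P4ha2 and Plod1 minus Plod2 or Plod3 are higher on average in DKD+enarodustat than in DKD, and Lox minus Loxl2 separates the 5 Sham arrays from all others.

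Lox, the lysyl oxidase that starts cross-links in collagen and elastin, was the member that changed most in diabetes. On its brightest probe the log2 level ranged from -2.36 to -1.51 (median -2.04) in DKD+enarodustat and from -2.52 to -1.89 (median -2.17) in DKD. It was -3.69, -3.30, -4.02, -3.92 and -4.43 in Sham. All 14 diabetic rats lay above all 5 Sham rats, and the diabetic groups overlapped. The means were -1.96 ± 0.28 in DKD+enarodustat, -2.19 ± 0.26 in DKD and -3.87 ± 0.42 in Sham (SD). DKD was higher than Sham by 1.68 ± 0.18 (3.20-fold, adjusted p = 5.55e-06), and groups did not overlap in 10.7% of all genes in this comparison. Within slides 1 and 2 the difference was 1.43 and 1.70, on slide 3, which holds 1 Sham array, it was 2.19, and within row 1 it was 1.69. DKD+enarodustat was higher than Sham by 1.91 ± 0.18 (3.75-fold, adjusted p = 8.11e-07), and groups did not overlap in 14.4% of all genes there. Over 23 alternatives that difference was 1.15 to 2.05, with adjusted p up to 0.00224 in the limma fit. DKD+enarodustat differed from DKD by 0.23 ± 0.16, which did not pass (adjusted p = 0.614, 95% interval -0.11 to 0.57).

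Lox had 3 probes on chr18 of rn4, all on the minus strand, and they gave like differences. The brightest, at 47893980 to 47894039 and printed in 10 spots, is the one described above. For DKD against Sham the probe at 47896734 to 47896793 gave 1.56 ± 0.19 and the probe at 47898302 to 47898361 gave 1.55 ± 0.18 (adjusted p = 1.99e-05 and 1.47e-05 over 30259 probes). For DKD+enarodustat against DKD they gave 0.17 ± 0.17 and 0.18 ± 0.17, which did not pass. The DKD difference from Sham in Lox was 1.07 with normexp correction followed by quantile normalisation and 1.65 with quantile normalisation alone. The authors' value table, whose method is not given in the sources used here, gave 1.00, and the 3 values passed the threshold. For DKD+enarodustat against Sham the value table gave 1.15 and normexp with quantile normalisation 1.26, both past the threshold.

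**Figure D4:**
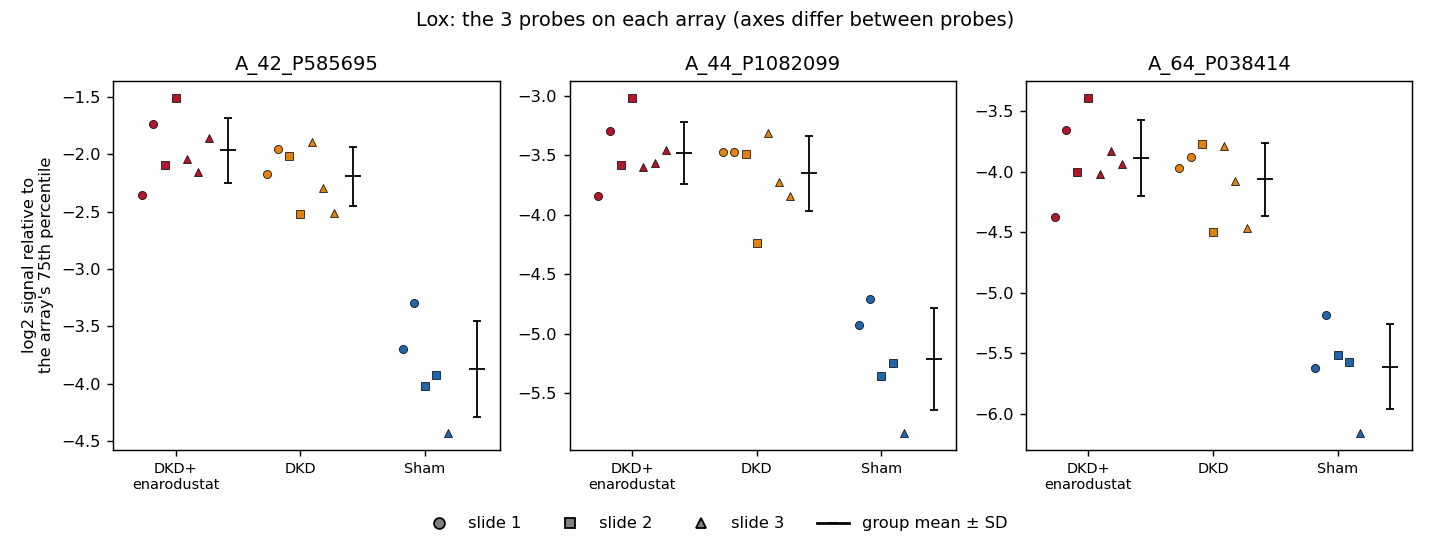
Log2 level (y axis, relative to the 75th percentile of the array, with its own range for each probe) of the 3 Lox probes on each array, by group (x axis); points are arrays, shapes are slides and bars are group means ± SD. On each probe the 5 Sham arrays lie below the 14 arrays of both diabetic groups.

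Markers of some cell types differed between the groups that differed in Lox and Loxl2, and those of others did not pass. In that comparison, DKD against Sham, 17.1% of all genes tested passed. Among 6 adipocyte markers tested of 7, Fabp4 rose by 3.58 ± 0.91 and Cfd by 3.66 ± 1.16 in DKD against Sham. Lep rose as well (adjusted p = 0.0110 in the limma fit). Lep and Plin1 were not well above background on any Sham array, and no fold is given for them. The log2 summed level of that list ranged from -0.43 to 2.59 in DKD+enarodustat, from -0.49 to 3.84 in DKD and from -1.26 to -0.50 in Sham. The highest sums, 3.49 and 3.84, belonged to DKD replicates 2 and 4, whose Lox levels were -1.95 and -2.52. Without them the Lox difference was 1.69, but the DKD arrays that remained still had sums above all Sham arrays, up to 1.82 in replicate 6. Of 7 fibroblast and pericyte markers tested of 8, Vim (0.66 ± 0.13), Dcn (0.88 ± 0.18) and Pdgfra (0.23 ± 0.069) rose and Dpt (-0.67 ± 0.20) fell, and Lum was above background on no array. The summed level of that list ranged from 2.70 to 3.40 in DKD+enarodustat, from 2.80 to 3.43 in DKD and from 2.70 to 3.04 in Sham. Of 5 macrophage markers Csf1r rose by 0.43 ± 0.14 and Cd163 rose as well (adjusted p = 0.0025 in the limma fit). Cd163 was not well above background on any Sham array, and no fold is given for it. The summed level of that list ranged from -0.50 to 0.82 in DKD+enarodustat, from -0.63 to 0.29 in DKD and from -0.53 to -0.30 in Sham. Of 5 smooth muscle markers Tagln (1.02 ± 0.24) rose and Smtn (-0.48 ± 0.12) fell, with summed levels of 0.97 to 1.67 in DKD+enarodustat, 1.21 to 1.77 in DKD and 1.08 to 1.62 in Sham. Cfd, Pdgfra and Csf1r missed the threshold without the DKD arrays of row 2, and Pdgfra did so with the replicate block. With normexp correction and quantile normalisation, Cfd, Lep and Cd163 missed it. Of the 4 myofibroblast markers tested of 6, 0 passed in the limma fit and 0 had an unadjusted p under 0.05. Fap was well above background on no array, and Postn on no Sham or DKD+enarodustat array. Of 6 endothelial markers 0 passed and 1 had an unadjusted p under 0.05. In DKD+enarodustat against DKD 0 of these 6 passed, 3 had an unadjusted p under 0.05 and 5 differences were positive. There 1 of them rose with slide as a block, with the replicate block, and with normexp correction and quantile normalisation. Of the 7 proximal tubule markers, Lrp2 (-0.62 ± 0.12), Aqp1 (-0.38 ± 0.10), Slc34a1 (-0.26 ± 0.074) and Slc22a6 (-0.34 ± 0.11) fell and Cubn (0.51 ± 0.081) rose in DKD against Sham. Slc34a1 and Slc22a6 missed the threshold without the DKD arrays of row 2. The summed level of the proximal tubule list was 7.88 to 8.26 in DKD+enarodustat, 7.98 to 8.19 in DKD and 8.30 to 8.43 in Sham. The part of these cells in the Lox and Loxl2 differences, and in those of P4ha1 and Plod1, was not tested.

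Loxl2, a lysyl oxidase-like enzyme that cross-links collagen IV of basement membranes, went the other way in diabetes. Its log2 level ranged from -2.89 to -1.67 (median -2.24) in DKD+enarodustat and from -2.81 to -2.39 (median -2.65) in DKD, and was -2.07, -2.34, -1.54, -1.73 and -1.87 in Sham. All 7 DKD rats lay below all 5 Sham rats, by a small margin, and groups did not overlap in 10.7% of all genes in this comparison. The means were -2.59 ± 0.15 in DKD and -1.91 ± 0.31 in Sham, and DKD was lower by a log2 difference of -0.68 ± 0.20 (0.62-fold, adjusted p = 0.0242). This call was near the threshold. The difference was -0.55 with an adjusted p of 0.0573 with the replicate block, -0.59 with 0.0766 without Sham replicate 3 and -0.64 with 0.0625 without Sham replicate 4. Within slides it was -0.32, -0.86 and -0.83, within row 1 -0.73, and in the authors' value table -0.44. The Loxl2 probe was printed in 1 spot, at chr15:50067990-50068049 on the plus strand of rn4.

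The DKD+enarodustat rats were split in Loxl2 by slide. The 4 rats on slides 1 and 2 had levels of -2.24 to -1.67 and the 3 rats on slide 3 had -2.89 to -2.64. The first set lay above all DKD rats and the second within or below their range. The difference of DKD+enarodustat from DKD was 0.28 ± 0.18, which did not pass (adjusted p = 0.557), with 0.60, 0.50 and -0.077 within slides 1, 2 and 3. Against Sham it was -0.40 ± 0.20 (adjusted p = 0.155).

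Lox and Loxl2 changed unequally in diabetes. Lox minus Loxl2 was 0.40 ± 0.22 in DKD (SD, n = 7) and -1.96 ± 0.67 in Sham (SD, n = 5), an unequal change of 2.36 with no overlap. The p was the smallest that 7 against 5 rats can give in this test (exact permutation test, p = 0.00126, adjusted p = 0.00884). This outcome was fixed in advance, because each DKD rat lay above all Sham rats in Lox and below them all in Loxl2. The test therefore gives no support beyond the 2 single calls. Lox minus Loxl2 was 0.35 ± 0.42 in DKD+enarodustat, an unequal change of -0.051 against DKD that did not pass (exact permutation test, adjusted p = 0.817). Over 25 alternatives the unequal change between DKD and Sham ranged from 1.43 to 2.61 and passed in each. Leaving out rats keeps the separation of the groups in both genes, so these passes add no support either.

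Over the 19 arrays, the genes whose centred log2 levels lay nearest to those of a member were found by root mean square distance. For P4ha1 they were Prelid2 (0.18), Pkm (0.21) and Pfkp (0.22), where P4ha1 itself varied by 0.42 around its mean. For Plod1 they were Aldoa (0.10), Fam162a (0.12) and Tpi1 (0.12), where Plod1 varied by 0.30. For Lox they were Ucma (0.25), Sct (0.29) and Hyal1 (0.32), where Lox varied by 0.85. These 9 genes had differences of their own in the comparison where the member moved: for DKD+enarodustat against DKD, 0.77 for Prelid2 and 0.58 for Aldoa, and for DKD against Sham, 1.26 for Ucma and 1.65 for Sct. The arrays share 3 group means, which bring any pair of genes that follow the groups close to each other.

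The remaining genes of the pathway were read from 5 lists. Over all genes tested, 17.1% passed in DKD against Sham, 2.00% in DKD+enarodustat against DKD and 26.1% in DKD+enarodustat against Sham. At a share of 2.00%, lists of this size would hold few calls or none. Whether a list exceeded these shares was not tested. Of 19 collagen processing partners tested, 4 rose and 0 fell in DKD against Sham (8 had an unadjusted p under 0.05), with a median difference of 0.14. The largest was Loxl4, another lysyl oxidase, at 1.48 ± 0.18 (adjusted p = 2.63e-05), followed by Bmp1, the protease that trims procollagen and the lysyl oxidase precursor, at 0.77 ± 0.15. P3h4, a partner of lysyl hydroxylase in a complex known from the mouse, rose by 0.62 ± 0.14 and Fkbp14, a prolyl isomerase of the endoplasmic reticulum, by 0.44 ± 0.14. Fkbp14 missed the threshold with the slide row as a term (0.47, adjusted p = 0.0529). In DKD+enarodustat against DKD the limma fit called 0 of these 19, 0 of them had an unadjusted p under 0.05, and the median was -0.0036. Against Sham, DKD+enarodustat had 4 that rose and 1 that fell, among them Pcolce, an enhancer of the procollagen protease (0.43 ± 0.14), and Serpinh1, the collagen chaperone (-0.21 ± 0.068), which was named after its value was seen. With the slide row as a term 1 rose and 0 fell there, and Pcolce (0.11, adjusted p = 0.852), Serpinh1 (-0.29, adjusted p = 0.207), Bmp1 and P3h4 missed the threshold, while with slide as a block 7 rose and 1 fell.

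The collagen chains moved in both directions. In DKD against Sham, 2 of 17 rose and 2 fell, and the median difference was 0.066. Col4a4 (-1.26 ± 0.14) and Col4a3 (-0.83 ± 0.20), chains of the collagen IV of the glomerular basement membrane, fell. Col8a1 (1.13 ± 0.28), a short-chain collagen, and Col4a6 (0.48 ± 0.12), another collagen IV chain, rose. Of the 4 podocyte markers reported, Nphs1 (-0.44 ± 0.11) also fell, with summed levels over these 4 of 2.13 to 2.74 in DKD+enarodustat, 2.06 to 2.62 in DKD and 2.36 to 2.64 in Sham, and the part of podocytes in the Col4a3 and Col4a4 differences was not tested. In DKD+enarodustat against DKD the limma fit called 0 of 17, 0 had an unadjusted p under 0.05, and the median was -0.076.

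Of 14 elastic fibre genes and lysyl oxidase partners, 4 rose and 1 fell in DKD against Sham, with a median of 0.36. Fbln1, a fibulin, rose by 1.32 ± 0.26, Mfap5, a microfibril protein, by 1.96 ± 0.59, and Efemp2, a fibulin that binds lysyl oxidase, by 0.43 ± 0.11. Fbn2, a fibrillin, fell by 0.96 ± 0.17. The fifth was Mfap4 (0.91 ± 0.28), named after its value was seen. With the slide row as a term 1 rose (Fbln1) and 1 fell, and without the DKD arrays of row 2, 2 rose and 1 fell. In DKD+enarodustat against DKD the limma fit called 0 of 14, 3 had an unadjusted p under 0.05, and the median was -0.068.

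The other 2-oxoglutarate dioxygenases were the list with the most calls for enarodustat. Of 19 tested, 4 rose and 0 fell in DKD+enarodustat against DKD, with a median of -0.0053. They were Egln3 (0.84 ± 0.16) and Egln1 (0.39 ± 0.062), both HIF prolyl hydroxylases, and Kdm4b (0.28 ± 0.058) and Jmjd6 (0.34 ± 0.080), a histone demethylase and a lysyl hydroxylase of nuclear proteins. Egln1 averaged 1.87 ± 0.13 in DKD+enarodustat, 1.48 ± 0.081 in DKD and 1.77 ± 0.088 in Sham (SD). With the slide row as a term, which rests on 2 DKD arrays, 1 of these calls was kept, Egln1, and Kdm4b missed the threshold without the DKD arrays of row 2 (adjusted p = 0.0529). In DKD against Sham 4 fell and 1 rose: Kdm4b (-0.29 ± 0.064), Egln1 (-0.29 ± 0.068), Tet3 (-0.32 ± 0.076) and Kdm6b (-0.40 ± 0.11) fell. The one that rose was Bbox1, an enzyme of carnitine synthesis (1.41 ± 0.38), named after its value was seen and lost with the replicate block (1.20, adjusted p = 0.0518).

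P4hb belongs to the disulfide isomerases, and 18 other isomerases and chaperones of the endoplasmic reticulum were set beside it. In DKD against Sham 5 fell and 0 rose, with a median of -0.20 and 13 with an unadjusted p under 0.05. Sdf2l1 (-0.87 ± 0.15) and the chaperone Hspa5 (-0.41 ± 0.091) fell most, and Hsp90b1 (-0.29 ± 0.096) and Canx (-0.18 ± 0.052) fell too. The fifth was Pdia3 (-0.22 ± 0.074), a disulfide isomerase, named after its value was seen. With normexp correction and quantile normalisation 9 fell and 0 rose, and without the DKD arrays of row 2, 3 fell and 0 rose. With the replicate block 2 fell and 1 rose, and Canx, Hsp90b1 and Pdia3 missed the threshold (adjusted p = 0.0731, 0.110 and 0.0741). In DKD+enarodustat against DKD 1 rose, Ero1a, the oxidase that recharges protein disulfide isomerase, by 0.45 ± 0.11 (adjusted p = 0.0367), and it was lost with the replicate block (adjusted p = 0.0612) and without the DKD arrays of row 2 (0.0935).

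**Figure D5:**
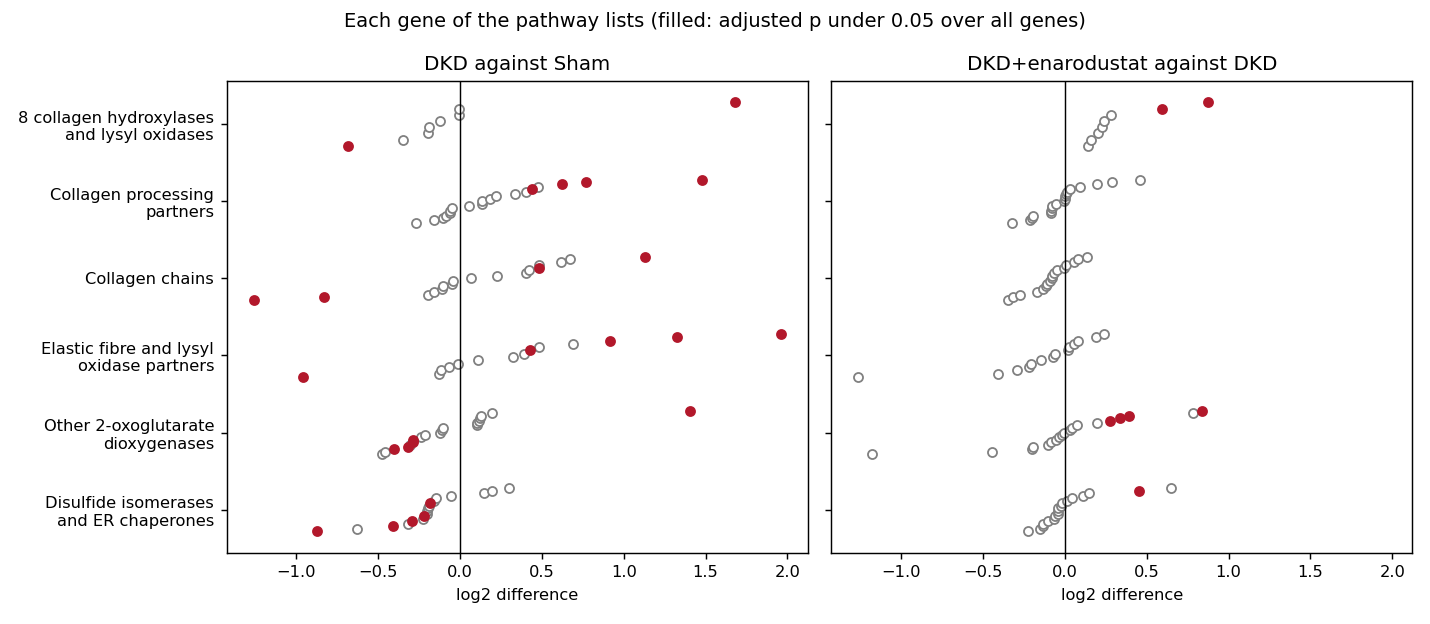
Log2 difference (x axis) of each gene of the 8 members and of the 5 pathway lists (rows) for DKD against Sham (left) and DKD+enarodustat against DKD (right); each point is a gene, and filled points passed the adjusted threshold over all genes. On the right the filled points are 2 members, 4 of the other dioxygenases and 1 gene of the isomerase list, while the collagen chains, the processing partners and the elastic fibre genes show open points.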

How the data were processed

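Per the labels, Cy3-labelled renal cortex RNA was hybridised to Agilent arrays in 1 colour. Per the file headers, the deposited scanner files give a processed intensity per spot, made with Agilent Feature Extraction 11.5.1.1. A second deposited file holds log2 values of 22739 probes, called here the authors' value table, and its method is not given in the sources used here. That table was used as an alternative; its column medians were 8.13 to 8.21 and their correlation with scanner values after normexp correction and quantile normalisation was 0.9973 to 0.9993. The submitters' processing notes also name limma.

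Log2 of the processed intensity minus the 75th percentile of the array was computed, outlier spots were left out, and spots of a probe were averaged, with 65 probe values missing. Probes well above background on at least 5 of 19 arrays were kept (30259), and the brightest stood for its gene (24216 genes). Of the 45598 probe names, 21102 took their name from a RefSeq gene table of GRCr8 by accession and 1977 through another probe of the same name. One fit over the 3 groups was made by lmFit and eBayes of limma 3.58.1 (R 4.3.3, statmod 1.5.0), with 16 residual degrees of freedom and Benjamini-Hochberg adjustment within a comparison. Pairs of members were compared with exact permutation tests over arrays. Promoter sequences are those of RefSeq, assembly GRCr8; the file headers give probe positions on rn4, and their exon or UTR was not looked up here.

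Members and lists were chosen with earlier results of these data known. The text names all members, up to 4 called genes with the smallest adjusted p in each pathway list and comparison, and the 3 genes nearest to P4ha1, Plod1 and Lox. Further pathway genes are marked as named after their values were seen. From the marker lists it names the genes called in DKD against Sham and genes not above background. The genes Pcolce2, Mia3, Col4a2, Col4a5, Col6a1, Col12a1, Fbln2, P4htm and Kdm6a were not analysed here. One further podocyte marker is not reported here and was left out of the podocyte list and its summed level. The labels number the replicates, and arrays of the same number lay on the same slide. All 17 pairs of same-numbered arrays of different groups deviated together from their group means (r = 0.13 to 0.59), as did 20 of 22 pairs of other numbers on the same slide (r over 0.1; 0.061 to 0.52 in all), so number and slide are not separated. The rule set for pairing, that all pairs exceed 0.1, was met, but it cannot tell pairing from a shared slide. The replicate block was therefore run as an alternative, while the fit used here and the main permutation tests held no block. Alternatives also changed the background correction, normalisation, filter, probe choice, slide, slide row and samples. Scripts were tested on simulated data. Precision is limited by the number of arrays; those of a group correlated at 0.968 to 0.990.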

Additional observations from a re-analysis of the deposited data

How the results depend on the processing

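The number of members called was equal in 70 of 74 recomputations over the 3 comparisons. For DKD against Sham it was 1 with the replicate block instead of 2, and 1 to 2 when single replicates were left out, because Loxl2 was lost. For DKD+enarodustat against Sham it was 2 instead of 3 with the slide row as a term, because Plod1 was lost. The replicate block ended no other member's call. The number of unequal changes between pairs was 8 to 12 against 11. Plod1 minus Plod2 in DKD against Sham passed without DKD replicate 6, and P4ha1 minus Plod1 in DKD+enarodustat against Sham passed without Sham replicate 1. Of 592 recomputed values of single members, 20 turned their sign, all in differences that did not pass. In DKD against Sham, Plod1 became 0.024 with slide as a block and 0.050 with the replicate block, with -0.036 to 0.025 when replicates were left out. P4hb became 0.014 with the slide row as a term, without the DKD arrays of row 2, and in row 1 alone (an alternative chosen after seeing the data), with -0.036 to 0.025 when replicates were left out. In DKD+enarodustat against Sham, Plod2 became -0.11 with the slide row as a term, with -0.020 to 0.095 when replicates were left out, and Plod3 ranged from -0.028 to 0.12. P4ha1 and Plod1 kept their calls against DKD in all 26 alternatives, with rises of 0.78 to 0.92 and 0.48 to 0.63 and adjusted p up to 0.0138 and 0.0425. Lox kept its call against Sham in all 25, at 1.00 to 1.82. The calls over all genes moved more: for DKD+enarodustat against DKD 485 in the fit used here, 84 with the slide row as a term, 915 with slide as a block, 276 with those 2 groups alone, 291 with median centring, 284 without the filter, 1775 in the authors' value table and 286 to 497 when replicates were left out. For DKD+enarodustat against Sham 6310 became 1031 with the slide row as a term and 10739 without the filter. The cause was not tested.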
